A study of Mus musculus with 6 samples.

Results

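Lung cells of mice without the chemokine receptor CCR2 were compared 28 days after silica aspiration with those of untreated mice of the same genotype. The 2 groups, Ccr2KO day 28 and Ccr2KO day 0, make up 2 of the 6 arrays of the series, and a gene was included when its signal was well above background on at least 1 of these 2 arrays, which held for 16539 of 20887 genes with a RefSeq probe. Both Ccr2KO groups were of the strain B6.129S4-Ccr2tm1Ifc/J, which carries a germline disruption of Ccr2 in every cell of the animal. The WT groups used beside them, day 28 after silica and day 0 untreated, were C57BL/6J mice, and Ccr2KO cells of day 40 are quoted as values only. All mice were 7 to 9 weeks old when the experiments began. Perfused lungs were dissociated with enzymes, red cells and silica were taken out on Percoll, and cells without the leukocyte antigen CD45 were separated magnetically. RNA from 3 biological replicates was pooled into 1 sample for each group, and each pool was hybridised to 1 one-colour Agilent array. No difference below therefore has a test or a spread between animals, and each one compares 2 pools of RNA.

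Inhaled crystalline silica is taken up by lung macrophages, which it injures, and the cycle of particle release and uptake keeps inflammation going until fibrous nodules form. Fibroblasts in such lungs lay down collagen and other matrix proteins, and the thin type 1 cells that line the alveoli are lost and replaced from type 2 cells. CCR2 is the receptor for CCL2 and related chemokines, and lets inflammatory monocytes leave the bone marrow and enter injured tissue. CD45-negative lung cells are the epithelium, endothelium, fibroblasts, smooth muscle and mesothelium that receive these signals and make the scar.

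Levels are log2 signals from which the array's own 75th percentile was taken, so that a positive level belongs to the brighter probes of that array, and levels of different genes are not compared because each probe has its own sensitivity. A difference is the day 28 level minus the day 0 level, and a value of 1 is 2-fold. Each array held 62976 spots, of which 59305 were not controls. Of these 59305, 65% and 64.66% were well above background on the Ccr2KO day 28 and day 0 arrays, and none was saturated. The number of arrays, 1 per group, limits the precision. The error that could be measured was that of spots. Among 325 probes printed 10 times and above background on both arrays, the SD over spots had a median of 0.063 on the day 28 array and 0.06 on the day 0 array, and the SD of a single-spot difference had a median of 0.089 and a 95th percentile of 0.257. This error leaves out animals, cell preparation and hybridisation. Of 472 genes with several probes that differed at least 2-fold, 457 had the same sign on all of them. Both Ccr2KO arrays lay in the same row of the slide.

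Ccr2 itself read −1.51 on the Ccr2KO day 28 array, against −5.07 on the Ccr2KO day 0 array. The WT arrays read 1.38 at day 28, against 0.09 at day 0. Signal was thus lower in Ccr2KO than in WT at each time, but the Ccr2KO day 28 array lay well above the Ccr2KO day 0 array, and slightly above the WT day 40 array at −1.70. The sources used here do not say whether the probe lies inside the disrupted part of the gene, so this reading checks the labels only in part. Xist, the RNA of the inactive X chromosome in females, was chosen for a look after its values were seen and was well above background on the Ccr2KO day 28 array at −3.40, against −7.62 on the Ccr2KO day 0 array, while the Y-linked Ddx3y read 1.62 and 2.30 on the same arrays. The sex of the pooled mice is not given in the labels.

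The cell type label held in part. Ptprc, the gene for CD45, read 2.14 on the Ccr2KO day 28 array, against 0.45 on the Ccr2KO day 0 array, and was well above background on both. All 12 pan-leukocyte genes measured were at least 2-fold higher at day 28, with a mean level of 3.21 on the Ccr2KO day 28 array, against 1.42 on the Ccr2KO day 0 array. Across all 6 arrays this mean ran between 0.91 on the Ccr2KO day 40 array and 3.6 on the WT day 28 array. Defining genes of the intended cells were bright on both arrays, among them the surfactant protein gene Sftpc at 8.81 on day 28 and 8.90 on day 0. A difference in bulk RNA may come from more or fewer cells of a type or from more or less RNA per cell, and these cannot be told apart here.

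Silica at day 28 went with a broad difference in Ccr2KO cells that was larger upwards than downwards. In all, 1588 genes (9.60% of those measured) were at least 2-fold higher and 1042 (6.30%) at least 2-fold lower on the day 28 array. With normexp background correction 1018 were higher and 613 lower. These counts, like those of the lists below, use the measured signals, also of genes not above background on 1 of the arrays, and 1247 and 852 of the genes were above background on both. The excess grew with the size of the difference: 184 genes were at least 8-fold higher and 43 at least 8-fold lower. The median over all genes was −0.07, and 15.9% of genes lay 2-fold or more from equality.

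The largest single difference was that of Grem1, which encodes gremlin 1, a secreted antagonist of bone morphogenetic proteins. It read 4.07 on the Ccr2KO day 28 array, against −4.67 on the Ccr2KO day 0 array, a 428-fold difference. Saa3, an acute phase apolipoprotein made locally in inflamed tissue, read 7.67 at day 28, against 1.92 at day 0 (53.7-fold). The Wnt ligand gene Wnt10a read 0.53, against −5.04 (47.5-fold). Each of these genes had its higher level on the day 28 array. Saa1 (6.38 at day 28, against 0.97 at day 0), Orm2 (−0.05, against −4.54) and Dmbt1 (1.31, against −3.10), all of which encode secreted defence or acute phase proteins, were also among the 15 largest increases. Mast cell proteases supplied another pair, with Mcpt4 at 2.55 on day 28, against −2.61 on day 0, and Cma1 at 0.23, against −4.74. Also among the 15 were Cxcl5, a neutrophil chemokine (4.72, against −0.10), Thbs2, a matricellular thrombospondin (2.27, against −2.44), Ngp, a neutrophil granule protein (2.30, against −2.28), and Clec4n, the C-type lectin dectin-2 of myeloid cells (3.74, against −0.69). The remaining genes were Chl1, a neural cell adhesion molecule (3.29, against −1.89), Pianp (0.45, against −4.30) and Syt10, a synaptotagmin (3.92, against −1.51).

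Genes below background in untreated Ccr2KO lungs included matrix genes that are hardly used in healthy lung. For these only a nominal lower bound of the fold can be given, since the day 0 signal was set to the lowest one that still counted as above background, or to its own value if higher. Col10a1, the collagen of hypertrophic cartilage, was at least 71.8-fold higher at day 28, and Col11a1, a fibril-nucleating collagen, at least 29.6-fold. Lrrc15, a membrane protein of activated fibroblasts, was at least 51.3-fold higher, and the stromelysin gene Mmp10 at least 68.3-fold. Mcpt2 and Mcpt1, mucosal mast cell proteases, had the largest bounds of all, 101-fold and 88.1-fold. Tff1, a mucus-associated trefoil peptide, followed with 51.2-fold, Mcpt-ps1 with 40.2-fold, Mmp1b with 26.4-fold and the secreted Wnt inhibitor Frzb with 25.3-fold. The probes of near-identical family members, such as the Mcpt, Saa, Orm and globin genes, may share signal, so the division within these families is uncertain.

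**Figure D1:**
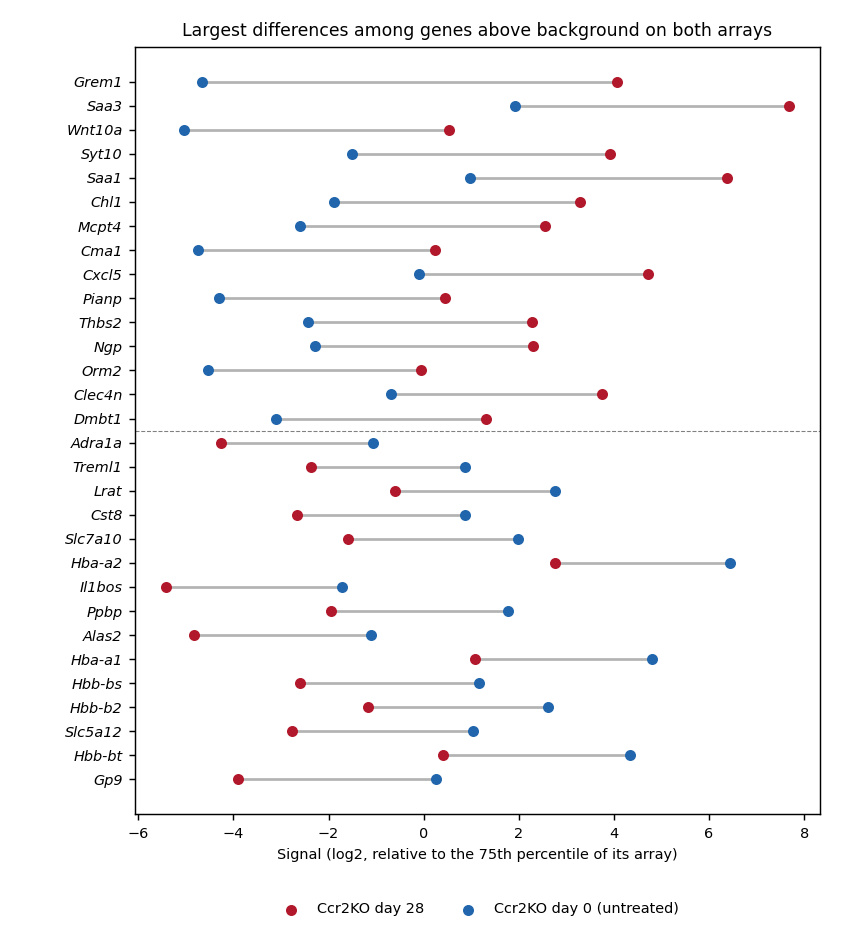
Level on the Ccr2KO day 28 array (red) and the Ccr2KO day 0 array (blue) of the 15 largest increases (above the dashed line) and the 15 largest decreases (below it) among genes above background on both arrays, in log2 signal after subtraction of the array's 75th percentile. Each point is 1 array of pooled RNA. Grem1 has the widest gap, 4.07 against −4.67, and 9 platelet and red cell genes are among the genes that were lower at day 28.

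The 15 largest decreases held many genes of platelets and red cells. Gp9, a subunit of the platelet receptor for von Willebrand factor, read −3.90 at day 28, against 0.26 at day 0 (17.8-fold lower). The chemokine gene Ppbp, which platelets store, read −1.94, against 1.78, and Treml1, a receptor of platelet granules, −2.37, against 0.86. The alpha and beta globin genes Hbb-bt, Hbb-b2, Hbb-bs, Hba-a1 and Hba-a2 were between 12.8 and 15.2-fold lower, and Alas2, the haem synthesis enzyme of erythroid cells, was 13.2-fold lower. Other genes in this group belong to transport and metabolism. The monocarboxylate transporter gene Slc5a12 read −2.77 at day 28, against 1.03 at day 0, the neutral amino acid transporter gene Slc7a10 −1.59, against 1.98, and Lrat, which esterifies retinol for storage, −0.60, against 2.77. Adra1a, an adrenergic receptor gene, read −4.27, against −1.06, and Cst8, a cystatin family gene, −2.66, against 0.86. Il1bos, a transcript antisense to Il1b, read −5.41, against −1.72. Below background at day 28 were Mrgprb3, Gsg1l, Tac1, Gria1, Svopl, Tdrd9 and Ptf1a, with bounds between 12.3 and 18.5-fold lower, and, with smaller bounds, the platelet glycoprotein genes Gp5 and Gp6 and the gene Cxxc4.

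Matrix genes were higher as a group. Of 22 measured collagen genes, 16 were at least 2-fold higher and 0 at least 2-fold lower, with a median difference of 1.57. Col1a1, the main chain of type I collagen, read 7.04 at day 28, against 5.39 at day 0, and Col3a1, its partner in soft scar, 7.23, against 5.43. Larger differences were seen in Col24a1 (−1.11, against −5.39), Col15a1 (−2.0, against −4.82), and Col7a1, the anchoring fibril collagen (2.92, against 0.42). Among 29 matricellular and adhesive glycoproteins 15 were at least 2-fold higher, with 0 lower and a median of 1.11. Spp1, which encodes osteopontin, read 3.47 at day 28, against −0.69 at day 0. Thbs4, a thrombospondin of tendon, read −0.05, against −4.10, and Cilp, a cartilage matrix protein gene, 2.20, against −1.40. Fibronectin, Fn1, was 2.73-fold higher, at 7.56, against 6.11.

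The enzymes that modify collagen differed less than collagen itself. Of 20 measured, 4 were at least 2-fold higher, and 1 was lower, with a median of 0.40. Loxl2, which crosslinks collagen, read 3.85 at day 28, against 1.42 at day 0, and the prolyl hydroxylase gene P4ha3 −0.29, against −1.61. Pcolce2, an enhancer of procollagen cleavage, went the other way, at 3.93, against 6.25. The 8 small leucine-rich proteoglycans were split, with Fmod (2.26, against 0.56) and Lum (3.42, against 2.10) higher, and Ogn (4.28, against 6.18) and Omd (−2.53, against −0.07) lower. Of 18 matrix metalloproteinases and their inhibitors, 9 were at least 2-fold higher and 1 lower. Timp1, an inhibitor of these proteases, read 5.63, against 2.51, and the collagenase gene Mmp13 −0.89, against −4.58.

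Fibroblast identity genes did not follow the matrix genes. Of 16 genes of resident lung fibroblasts, 6 were at least 2-fold lower and 1 higher, with a median of −0.60. Tcf21, a transcription factor of lipid-storing alveolar fibroblasts, read 0.51 at day 28, against 2.81 at day 0. Inmt, a methyltransferase gene bright in mouse lung stroma, read 5.82, against 8.24, Fgfr4 0.33, against 3.02, and Npnt, which encodes the basement membrane protein nephronectin, 0.65, against 2.60. The contractile genes of smooth muscle and myofibroblasts lay near the median of all genes, with 1 of 13 at least 2-fold higher, 1 lower and a list median of −0.12. Acta2, the smooth muscle actin used to mark myofibroblasts, read 6.03, against 5.21, a 1.77-fold difference. Actg2 was 3.05, against 1.99, Myh11 0.37, against 1.29, and Synpo2 −0.54, against 0.85, so contractile genes lay on both sides. The differences of the 3 Synpo2 probes ran from −1.38 to 0.23. The 9 mesothelial genes had a median of −0.97 with 3 at least 2-fold lower and 0 higher, led by Gpm6a (0.41, against 1.81) and Upk1b (0.12, against 1.47).

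Signalling lists went both ways. In the TGF-beta and activin list, 6 of 20 genes were at least 2-fold higher and 2 lower. The activin subunit genes Inhba (2.34 at day 28, against −0.54 at day 0) and Inhbb (2.86, against 1.1) were higher together with Fst, which encodes the activin antagonist follistatin (2.07, against −1.49), and the latent TGF-beta binding protein gene Ltbp2 (6.97, against 4.15). The BMP pathway list had a median of −0.39, with 15 of 20 genes within 2-fold. Grem1 and the ligand gene Bmp7 (0.72, against −0.45) were at least 2-fold higher and 3 genes were lower. These were Bmp6, a ligand (1.16, against 2.85), and the downstream genes Smad6 (2.39, against 4.06) and Smad9 (−3.26, against −1.44). The Wnt list was split, with 8 of 29 at least 2-fold higher and 6 lower. Besides Wnt10a, its higher genes included the secreted inhibitors Dkk2 (0.38, against −2.99) and Sfrp1 (3.00, against 0.68), while Wnt3a was at least 3.23-fold lower. Among 22 growth factors, 4 were at least 2-fold higher, among them Igf1, insulin-like growth factor 1 (3.95, against 0.99), Ereg, an EGF receptor ligand (1.44, against −1.16), and Pdgfc (−0.57, against −2.24). A further 5 were lower, including Fgf1 (3.30, against 4.89).

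Type 1 alveolar cell genes were lower nearly throughout. Of 14 measured, 12 were at least 2-fold lower and 0 higher, with a median of −1.58. Hopx, a homeodomain protein gene of these cells, read 3.43 at day 28, against 5.80 at day 0. Ager, the receptor for advanced glycation end products that marks type 1 cells, read 2.87, against 4.63, Akap5 2.51, against 4.53, and the sodium channel subunit gene Scnn1g −1.91, against −0.03. The exception was Pdpn, which is also made by fibroblasts and lymphatic endothelium, at 4.41, against 4.24. Type 2 cell genes differed less, with 4 of 17 at least 2-fold lower, 0 higher and a median of −0.76. Etv5, a transcription factor that keeps type 2 identity, read 3.78, against 5.02, Sfta2 3.54, against 4.80, Lpcat1, an enzyme of surfactant lipid synthesis, 0.40, against 1.5, and the lung master regulator Nkx2-1 0.67, against 1.70. Sftpc differed by −0.10. The 20 genes of surfactant lipid and sterol synthesis had a median of −0.39, and only Elovl6 (1.15, against −0.28) and Pla2g1b (−0.78, against 0.30) passed 2-fold.

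Airway epithelial lists differed from each other. Of 11 basal and squamous genes measured, 6 were at least 2-fold higher and 0 lower, with a median of 1.49. Krt5, the keratin of airway basal cells, read 0.99 at day 28, against −2.46 at day 0, its partner Krt14 −0.86, against −3.91, and the aquaporin gene Aqp3 0.79, against −2.0. The 5 members within 2-fold, Krt15, Krt6b, Trp63, Krt13 and Ivl, had differences between −0.90 and −0.11. Trp63 read 2.85, against 3.16, and its 2 probes differed by −0.31 and 2.64. The list median was 0.69 when genes had to be above background on both arrays. Of 16 genes of mucous cells and airway defence, 6 were at least 2-fold higher, among them Itln1, an intelectin (0.44, against −3.72), and Ltf, lactoferrin (4.53, against 2.27). Ciliated cell genes lay close to the median of all genes (list median −0.19), and their 1 member of 11 past 2-fold, Spag6, was not above background at day 28, with a bound of 1.12-fold lower. Club cell genes had a median of 0.01, with 1 of 9 higher and 1 lower, and their secretoglobin gene Scgb1a1 differed by −0.17. Genes of the transitional state between type 2 and type 1 cells had a median of −0.23. In it Lgals3, galectin 3, was higher (5.93, against 4.65), Mdk, midkine, was higher (2.84, against 1.62) and Cdkn1a was lower (3.56, against 4.57).

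Xenobiotic metabolism genes were lower, with 12 of 23 at least 2-fold lower, 1 higher and a median of −1.05. Gsta3, a glutathione transferase gene, read 3.61 at day 28, against 6.01 at day 0, the flavin monooxygenase gene Fmo2 3.68, against 5.89, and Cyp4b1 4.05, against 6.12. The 1 higher gene was Cyp1b1, a cytochrome P450 also made by fibroblasts, at 2.99, against −0.22. The circadian clock list had a median of −0.57 with 2 of 17 genes at least 2-fold lower, Hlf (−1.40, against −0.22) and Cry2 (2.31, against 3.47). Genes of NRF2 and metallothioneins had a median of −0.06, with the cystine transporter gene Slc7a11 higher (−1.97, against −4.75) and Mt1 lower (6.56, against 7.60). Hypoxia and glycolysis genes had a median of 0.07, with Egln3 higher (−0.13, against −2.78) and Vegfa lower (3.74, against 4.95).

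Endothelial genes differed by vessel type. The 15 pan-endothelial genes had a median of −0.49 with 1 at least 2-fold lower, the tight junction gene Cldn5 (5.61 at day 28, against 6.63 at day 0), and Pecam1 read 2.89, against 3.00. Alveolar capillary genes had a lower median of −0.84, with Ednrb, the endothelin receptor of aerocytes, at 0.47, against 2.70, Fibin at 2.30, against 4.75, and Kitl, the ligand of the receptor KIT, at 1.56, against 3.01. Aplnr, the apelin receptor of general capillaries, was the 1 higher member, at 1.69, against −1.35. Of 9 lymphatic endothelial genes only Prox1 (−2.81, against −4.23) and Lyve1 (2.51, against 3.52) passed 2-fold, in opposite directions. Venule genes that capture leukocytes included Ackr1, the chemokine-binding receptor of venules (1.16, against −1.61), Selp, P-selectin (2.0, against 0.77), and the addressin genes Madcam1 (−1.54, against −2.95) and Glycam1 (at least 21-fold higher). Altogether 5 of these 12 genes were at least 2-fold higher and 2 lower. Among 11 genes of lymphoid tissue stroma, 6 were at least 2-fold higher and 0 lower, with Cxcl13, the B cell follicle chemokine, at 2.41, against −1.07, and the lymphotoxin genes Lta at −1.80, against −4.61, and Ltb at 4.08, against 1.58. Lymphocytes themselves express Lta and Ltb, and T cell genes were higher on the same array, as given below; their part was not tested.

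Most monocyte-attracting ligand genes, including the CCR2 ligand genes Ccl2 and Ccl12, were higher at day 28. Of 10 monocyte-attracting ligand genes, 8 were at least 2-fold higher and 0 lower, with a median of 1.63. Ccl2, the main CCR2 ligand, read 5.23 on the Ccr2KO day 28 array, against 3.58 on the Ccr2KO day 0 array. Ccl7 read 3.76, against 2.14, Ccl8 2.76, against −1.16, and Ccl12, another mouse CCR2 ligand, −1.36, against −3.22. Among 7 neutrophil chemokines and colony-stimulating factors, 4 were at least 2-fold higher. Cxcl2 read 3.85, against 0.99, Cxcl3 0.71, against −2.55, and Csf3, the granulocyte growth factor, −2.02, against −4.03, while Cxcl1, in contrast, read 4.25, against 5.07. Of 13 other chemokines, 9 were at least 2-fold higher and 1 lower, with Ccl22, a dendritic cell chemokine, at least 5.45-fold higher, Ccl28, a mucosal chemokine, at least 3.24-fold higher, and Ccl6 (5.03, against 2.03) and Ccl17 (1.80, against −1.06) also higher.

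Of 25 interleukins and receptors, 7 were at least 2-fold higher and 3 lower. Il1rn, the interleukin 1 receptor antagonist, read −0.57 at day 28, against −4.43 at day 0, Il17a 2.55, against −1.23, Osm, oncostatin M, 1.01, against −2.35, and Il1rl1, the interleukin 33 receptor of mast cells and type 2 lymphocytes, 0.94, against −2.06. These are genes of leukocytes in large part, and the pan-leukocyte mean was 3.21 at day 28, against 1.42 at day 0; its part was not tested. Il6, a cytokine that fibroblasts also make, was lower, at 4.16, against 6.46. Acute phase genes were at least 2-fold higher in 13 of 18 cases and lower in 0, with a median of 1.52. Saa4 was at least 11.9-fold higher. Of 19 complement genes, 9 were at least 2-fold higher and 1 lower, with Cfd, adipsin, at −0.64, against −3.94, Cfp, properdin, at 2.23, against 0.16, and the terminal component gene C7 at −1.23, against 1.32.

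Interferon-related genes differed little as groups. The type I interferon list had a median of 0.13 with 4 of 20 genes at least 2-fold higher and 0 lower, led by Oas3 (−1.70 at day 28, against −3.89 at day 0). In the interferon-gamma list 2 of 16 were higher and 2 lower, with Cxcl9 at 1.88, against −0.17, and the transcription factor gene Irf1 at 4.68, against 6.73. MHC class I presentation genes all lay within 2-fold (11 genes, median 0.07). MHC class II genes had a median of 0.71, with H2-Oa (1.12, against −0.19) and H2-Ob (1.42, against 0.16), which B cells express, among 4 of 10 at least 2-fold higher. B cell genes were also higher, as given below, and their part was not tested.

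**Figure D2:**
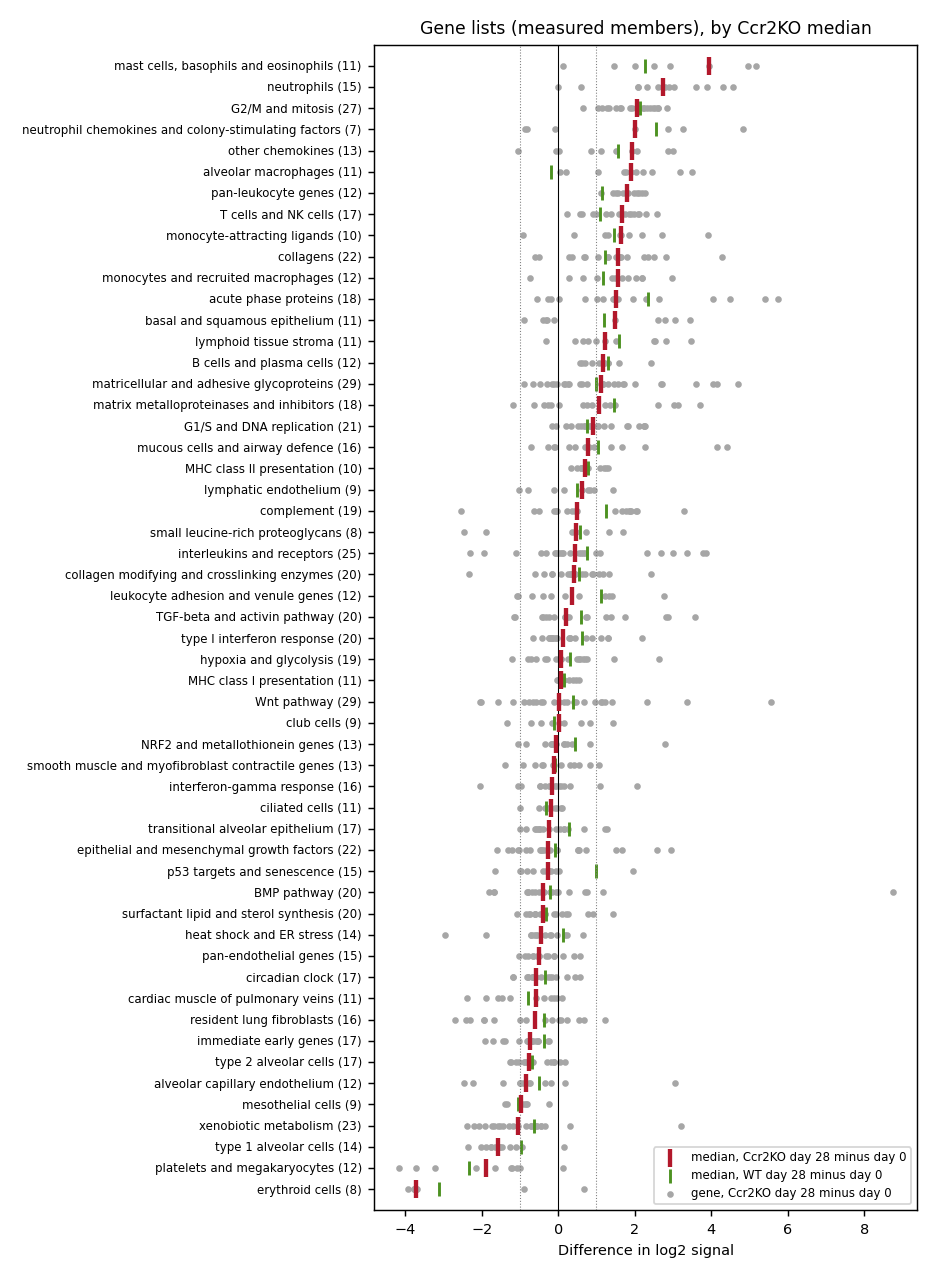
Difference in log2 signal for 54 gene lists, ordered by the median of Ccr2KO day 28 minus Ccr2KO day 0 (red bars), with the median of the same genes in WT day 28 minus WT day 0 (green bars). Grey points are single genes above background on both Ccr2KO arrays, dotted lines mark 2-fold, and the number of measured genes stands in brackets. Mast cell, neutrophil and G2/M lists lie at the top and erythroid, platelet and type 1 alveolar cell lists at the bottom, and the widest gap between red and green bars is that of the alveolar macrophage list, 1.91 against −0.20.

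Mitotic genes were higher almost without exception. Of 27 measured genes of G2/M and mitosis, 26 were at least 2-fold higher and 0 lower, with a median of 2.06. Top2a, the topoisomerase that untangles replicated chromosomes, read −0.09 at day 28, against −2.94 at day 0, and Cdk1, the kinase that starts mitosis, −0.24, against −2.84. Aurkb, Kif2c and Cdc25c were below background at day 0 and had bounds of 2.37, 4.13 and 3.01-fold. G1/S and DNA replication genes differed by less, with 10 of 21 at least 2-fold higher, 0 lower and a median of 0.92, led by Uhrf1 (0.45, against −1.83), the ribonucleotide reductase gene Rrm2 (1.27, against −0.96) and the thymidine kinase gene Tk1 (0.90, against −1.33). Leukocytes that divide express the same genes, and all 12 pan-leukocyte genes were at least 2-fold higher at day 28. On the Ccr2KO day 40 array, whose pan-leukocyte mean of 0.91 lay below the 1.42 of day 0, 23 of the 27 G2/M genes were at least 2-fold above day 0. The part of leukocytes in the day 28 difference was not tested.

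Mitotic genes share promoter elements, and the promoters of 4 of them are shown for that reason. In mammals, the CHR element (TTTGAA) binds the MuvB complex that represses these genes in resting cells and activates them in G2, and CCAAT boxes nearby bind NF-Y. The 250 bases before the RefSeq start (GRCm38.p6, written in the direction of transcription) are given with both motifs in capitals on either strand, so that ATTGG and TTCAAA are the reverse strand forms. Cdk1 lies at chr10:69352913-69353162 on the minus strand, Top2a at chr11:99024190-99024439 on the minus strand, Ube2c, a ubiquitin-conjugating enzyme gene of mitotic exit, at chr2:164769679-164769928 on the plus strand, and Cdc20, an activator of the anaphase-promoting complex, at chr4:118437344-118437593 on the minus strand.
Cdk1: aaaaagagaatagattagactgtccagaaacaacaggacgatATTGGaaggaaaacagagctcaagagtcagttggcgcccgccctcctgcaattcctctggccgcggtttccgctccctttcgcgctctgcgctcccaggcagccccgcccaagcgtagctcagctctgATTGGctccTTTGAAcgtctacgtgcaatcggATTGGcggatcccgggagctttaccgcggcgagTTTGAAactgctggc
Top2a: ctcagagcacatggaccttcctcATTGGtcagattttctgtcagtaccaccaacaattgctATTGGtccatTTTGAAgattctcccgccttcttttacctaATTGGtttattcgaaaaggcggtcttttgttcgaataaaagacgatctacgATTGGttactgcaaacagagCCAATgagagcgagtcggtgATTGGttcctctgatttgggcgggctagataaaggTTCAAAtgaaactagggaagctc
Ube2c: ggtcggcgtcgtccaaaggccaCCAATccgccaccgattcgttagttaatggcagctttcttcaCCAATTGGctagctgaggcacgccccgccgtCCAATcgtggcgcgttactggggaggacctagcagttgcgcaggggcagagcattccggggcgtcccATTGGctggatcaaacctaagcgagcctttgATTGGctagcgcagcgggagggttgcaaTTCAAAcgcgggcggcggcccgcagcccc
Cdc20: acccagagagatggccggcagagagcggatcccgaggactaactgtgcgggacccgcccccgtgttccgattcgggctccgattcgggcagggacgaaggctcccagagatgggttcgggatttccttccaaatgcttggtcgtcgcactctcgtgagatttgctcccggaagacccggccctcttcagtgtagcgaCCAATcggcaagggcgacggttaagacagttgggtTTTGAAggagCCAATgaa
The windows hold 3 CCAAT boxes and 2 CHR elements in Cdk1, 6 and 2 in Top2a, 6 and 1 in Ube2c, and 2 and 1 in Cdc20. No CCAAT box overlaps a CHR element, and in Ube2c a pair of CCAAT boxes on opposite strands overlap each other. Ube2c read 0.29 at day 28, against −1.58 at day 0, and Cdc20 1.55, against 0.03. Of the 20 G2/M genes with a promoter in the table, 16 (80%) held a CCAAT box in this window, against 39.4% of 13106 measured genes, and 8 (40%) held a CHR element, against 13.8%. Both motifs occurred in 7 of the 20 (35%), against 6.04% of measured genes. Of 18 G1/S genes, 11 (61.1%) held a CCAAT box and 3 (16.7%) a CHR element. A match is a description of letters and shows no binding.

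Most stress and early response genes lay within 2-fold. Of 17 immediate early genes, 5 were at least 2-fold lower and 0 higher, with a median of −0.74. Atf3 read 5.08 on the Ccr2KO day 28 array, against 6.99 on the Ccr2KO day 0 array, Fosb 5.09, against 6.79, Zfp36, which promotes decay of cytokine mRNA, 3.34, against 4.78, and Egr1 6.30, against 7.70. Of 14 heat shock and ER stress genes, 2 were at least 2-fold lower, the chaperone genes Hspa1a (1.40, against 4.36) and Dnajb1 (4.69, against 6.59). Among 15 p53 targets and senescence genes, 2 were lower and 1 higher. Gdf15, a stress-induced cytokine gene, read 3.32, against 4.98, and Cdkn2a, which encodes cell cycle inhibitors of senescent cells, 0.92, against −1.04.

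Blood cell genes differed by cell type. Neutrophil genes were at least 2-fold higher in 13 of 15 cases, with a mean level of 3.19 on the Ccr2KO day 28 array, against 0.51 on the Ccr2KO day 0 array. The granule genes Camp (3.51, against −0.80) and Mpo (1.36, against −2.53) and the alarmin gene S100a8 (6.96, against 4.25) were among them. Of 11 genes of mast cells, basophils and eosinophils, 10 were at least 2-fold higher and 0 lower, with a mean level of 0.91, against −2.94. The median difference of 3.94 was 2.71 with the 3 genes left out that were above background on 1 array only, 2.69 under normexp background correction and 2.52 in the authors' table. Besides the proteases given above, Cpa3, mast cell carboxypeptidase, read 1.67, against −2.26, and Epx, eosinophil peroxidase, was at least 16.5-fold higher. Alveolar macrophage genes were at least 2-fold higher in 9 of 11 cases. The scavenger receptor gene Marco read 0.42, against −2.75, Atp6v0d2, a subunit of the vacuolar proton pump, −0.02, against −3.51, and Chil3, a chitinase-like protein gene, 4.74, against 2.27.

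Genes of monocytes and recruited macrophages were higher too, with 9 of 12 at least 2-fold higher, 0 lower and a median of 1.57. Trem2, a lipid-sensing receptor gene of macrophages, read 0.91 at day 28, against −2.07 at day 0, and Arg1 −0.88, against −3.09. T cell and NK cell genes had a median of 1.66, with 12 of 17 at least 2-fold higher, among them Cd3g (1.22, against −1.37), Foxp3, the regulator of regulatory T cells (−1.74, against −4.03), and Icos (1.64, against −0.44). B cell and plasma cell genes had a median of 1.18, with 8 of 12 at least 2-fold higher, led by Blk (−1.64, against −4.07) and Ms4a1, which encodes CD20 (2.58, against 0.98). No list of white cell genes had a member at least 2-fold lower. Platelet genes were at least 2-fold lower in 10 of 12 cases, and their mean level was −2.86 on the Ccr2KO day 28 array, against −0.74 on the Ccr2KO day 0 array. Erythroid genes were at least 2-fold lower in 6 of 8 cases (mean level −0.77, against 2.08). Cardiac muscle genes, which mark the myocardial sleeve of mouse pulmonary veins, were at least 2-fold lower in 5 of 11 cases, with Actc1 at 1.74, against 3.63.

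**Figure D3:**
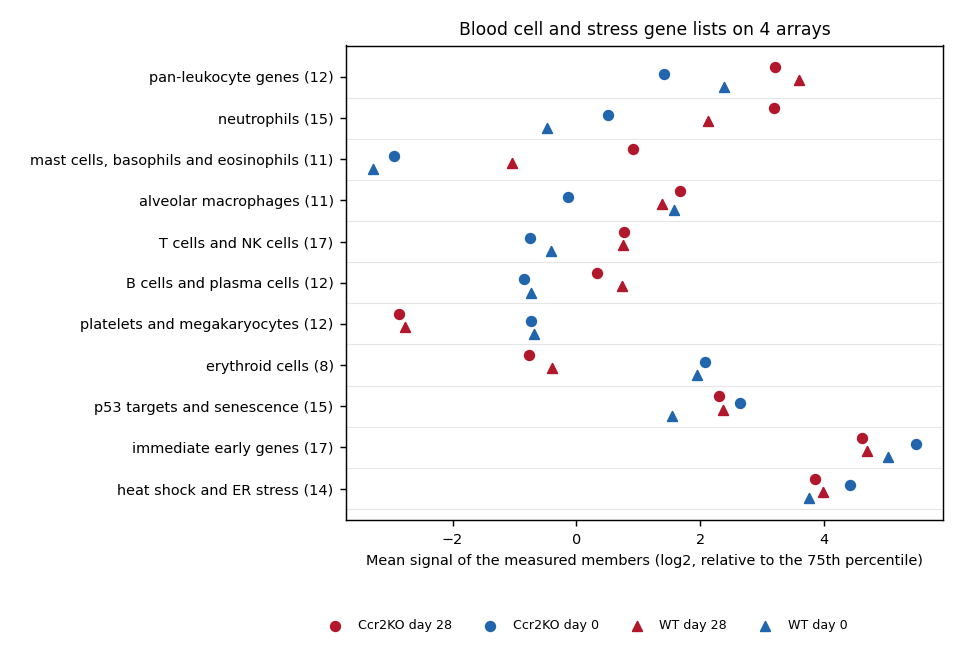
Mean log2 signal of the measured genes of 11 lists on the Ccr2KO day 28, Ccr2KO day 0, WT day 28 and WT day 0 arrays, after subtraction of each array's 75th percentile. Circles are Ccr2KO and triangles WT, red is day 28 and blue is day 0, and each point is 1 array. Alveolar macrophage genes averaged −0.14 on the Ccr2KO day 0 array, the lowest of the 4 arrays, and p53 and immediate early genes were highest there, at 2.64 and 5.48.

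The same time point was measured in WT mice. WT day 28 lay in the other slide row from WT day 0, so that slide row and day cannot be told apart there. In WT cells 1487 genes (8.99%) were at least 2-fold higher and 910 (5.50%) at least 2-fold lower at day 28. Of the 1588 genes higher in Ccr2KO, 1088 were also at least 2-fold higher in WT, which is 68.5% of the Ccr2KO genes and 73.2% of the WT genes. Of the 1042 genes lower in Ccr2KO, 471 were also lower in WT, or 45.2% of the Ccr2KO genes and 51.8% of the WT genes. Across genes, which are not independent replicates, the differences of the genotypes correlated at r = 0.74, with no array in common. Genes that went opposite ways, each at least 2-fold, numbered 15 among those higher in Ccr2KO and 14 among those lower.

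List medians of mitotic and neutrophil genes lay close together in the genotypes, and that of collagens was somewhat higher in Ccr2KO. The collagen median was 1.57 in Ccr2KO and 1.22 in WT, the G2/M median 2.06 and 2.15, and the neutrophil median 2.73 and 2.74. Col1a1 differed by 1.64 in Ccr2KO and by 1.29 in WT, and Grem1 by 8.74 and 6.98. At day 28 itself Col10a1 read 0.64 in Ccr2KO, against −2.86 in WT, and Col11a1 −0.77, against −3.25. On type 1 alveolar cell genes the Ccr2KO median was −1.58, and the WT median −0.97. Much of that gap lay in the untreated arrays, where the mean of the list was 4.05 in Ccr2KO and 3.6 in WT. At day 28 the same means were 2.57 and 2.75. The difference of the genotypes' differences passed 2-fold for 595 of all 16539 genes upwards in Ccr2KO (3.60%) and for 605 downwards (3.66%), and list counts are read against these shares. Of 22 collagen genes 4 had a difference at least 2-fold higher in Ccr2KO than in WT and 0 had a lower one, among them Col15a1 (2.81 in Ccr2KO, 1.69 in WT) and Col7a1 (2.50 and 1.40). Among resident fibroblast genes 6 of 16 had a difference at least 2-fold lower in Ccr2KO than in WT, and 0 had one at least 2-fold higher. Tcf21 differed by −2.30 in Ccr2KO and by −0.55 in WT. It read 2.81 in Ccr2KO and 1.78 in WT untreated, and 0.51 and 1.23 at day 28. Means of the fibroblast list were 3.5 and 3.22 untreated, and 2.71 and 3.02 at day 28, so the gap lay at both times.

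Over the 15360 genes above background on all 4 arrays, the day 28 minus day 0 difference was at least 2-fold higher in Ccr2KO than in WT for 324 genes (2.11%) and at least 2-fold lower for 392 (2.55%), so that 45.3% of these genes lay on the higher side. With arrays centred on their median this share was 30.1% (235 higher, 546 lower). List counts again cover all genes measured, with shares of 3.60% upwards and 3.66% downwards in Ccr2KO. Alveolar macrophage genes stood out, with 8 of 11 at least 2-fold higher in Ccr2KO. Marco differed by 3.17 in Ccr2KO and by −1.66 in WT, and Atp6v0d2 by 3.49 and 0.34. Much of this gap lay in the untreated arrays, where Marco read −2.75 in Ccr2KO and 0.60 in WT, while the mean of the list was −0.14 and 1.57. At day 28 the same means were 1.68 and 1.38. Genes of mast cells, basophils and eosinophils were at least 2-fold higher in Ccr2KO in 7 of 11 cases, with 1 lower, and here the gap lay at day 28. Mcpt4 read 2.55 in Ccr2KO and 0.13 in WT at day 28, against −2.61 and −1.58 untreated. Among the 15360 genes, the 10 whose difference was highest in Ccr2KO relative to WT also included Syt10, Trex2, Crygc, Fabp1, Prm1, Dpf1 and Cyp1a1. The 2 probes of Dpf1 differed by −0.81 and 0.60 in Ccr2KO. Dpf1 read −2.18 on the WT day 28 array and between −0.08 and 0.73 on all other arrays. Some genes, such as Syt10, had the wider gap between genotypes in the untreated arrays. Syt10 read −1.51 in Ccr2KO and 2.53 in WT at day 0, and 3.92 and 3.33 at day 28. Trex2 read −0.84 on the Ccr2KO day 28 array and between −5.64 and −4.39 on the Ccr2KO day 0, WT day 28, WT day 0 and Ccr2KO day 40 arrays. Cyp1a1, a target of the aryl hydrocarbon receptor, differed by −0.85 in Ccr2KO and by −4.33 in WT. It read 1.48 on the WT day 0 array and between −3.28 and −1.20 on all other arrays.

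**Figure D4:**
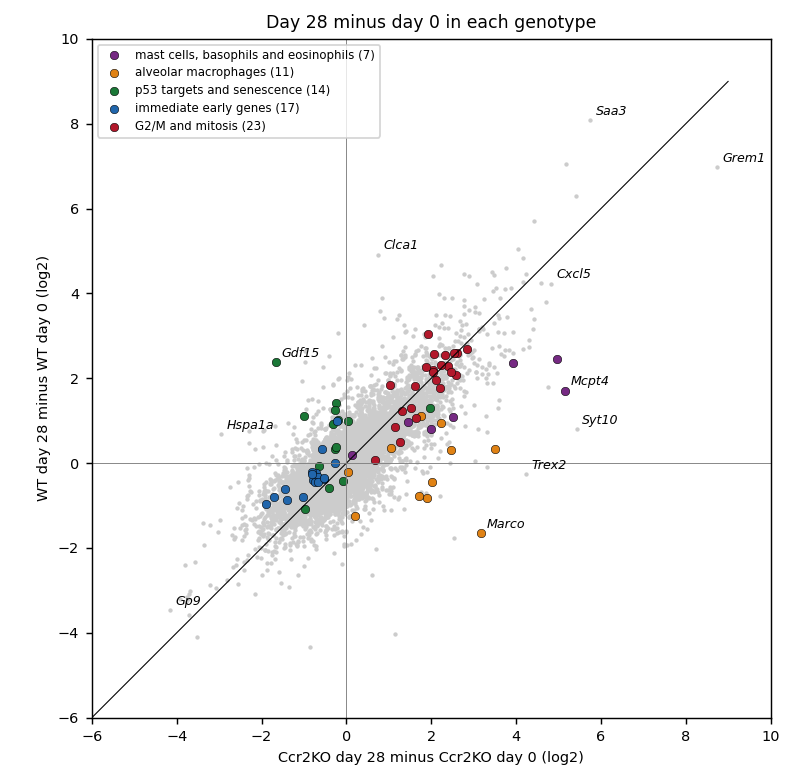
Day 28 minus day 0 difference in Ccr2KO (horizontal) and in WT (vertical), both in log2, for the 15360 genes above background on all 4 arrays, with 5 lists in colour and the number of their genes shown in brackets. The diagonal marks equal differences. Most alveolar macrophage and mast cell genes lie to the right of it, the p53 target Gdf15 lies far to the left, and G2/M genes lie along it.

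On the lower side were stress and inflammatory genes whose levels were high in untreated Ccr2KO lungs. Il6 read 4.16 on the Ccr2KO day 28 array, against 6.46 on the Ccr2KO day 0 array, and 5.05 on the WT day 28 array, against 4.28 on the WT day 0 array. Gdf15 read 3.32 at day 28 and 4.98 at day 0 in Ccr2KO, against 4.28 and 1.90 at the same times in WT. Hspa1a read 1.40 and 4.36 in Ccr2KO, against 2.0 and 1.32 in WT, and Cxcl10, an interferon-induced chemokine gene, 4.40 and 5.44, against 4.40 and 2.47. On the untreated array each of these genes was higher in Ccr2KO than in WT. Of the 15 p53 and senescence genes, 7 had a difference at least 2-fold lower in Ccr2KO, and 0 a higher one, with list medians of −0.28 in Ccr2KO and 0.98 in WT. Ccl2 showed the same order, with 5.23 and 3.58 in Ccr2KO, against 4.41 and 1.78 in WT, and Saa3 read 7.67 and 1.92, against 7.23 and −0.85. Thus at day 28 both genes were higher in Ccr2KO than in WT, and their differences from untreated lungs were smaller. Clca1, a goblet cell gene, differed by 0.75 in Ccr2KO and by 4.92 in WT, and Gp2, which encodes a glycoprotein of M cells, by 0.85 and 3.89. Ccdc184, Sowaha, Mapk8ip2 and Kif9 completed the 10 lowest, with differences between −0.98 and −0.19 in Ccr2KO and between 2.38 and 3.06 in WT. Sowaha, Mapk8ip2 and Kif9 were not high in untreated Ccr2KO lungs, at −3.96, −4.85 and −1.76, against −3.84, −4.84 and −1.97 in untreated WT. Each had its highest level on the WT day 28 array, at −1.46, −1.78 and 0.56. Probes of Sowaha ran from −0.98 to 0.35 in Ccr2KO, and those of Kif9 from −0.42 to 0.25.

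Values of the Ccr2KO day 40 array, set beside those of day 28, share the same untreated array and are therefore not an independent comparison. Against day 0, 1420 genes (8.59%) were at least 2-fold higher and 1013 (6.12%) lower at day 40. The collagen median was 1.57 at day 28 and 1.93 at day 40, the matricellular median 1.11 and 1.61, and the type 1 alveolar cell median −1.58 and −1.88. White cell lists had smaller values at day 40 than at day 28, with pan-leukocyte medians of 1.79 and −0.52, neutrophil medians of 2.73 and 0.09, and B cell medians of 1.18 and −1.51. The mast cell list differed from them, with 3.94 at day 28 and 3.30 at day 40. Ccl2 read 3.58 at day 0, 5.23 at day 28 and 5.83 at day 40, Grem1 −4.67, 4.07 and 4.86, and Il6 6.46, 4.16 and 5.98. Immediate early genes had medians of −0.74 at day 28 and −0.15 at day 40.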

How the data were processed

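Gene expression was measured on 6 one-colour Cy3 arrays, 1 for each pooled RNA. Per the file headers, the authors scanned arrays of the design 028005, annotated on mm9, with an Agilent G2600D scanner, and the deposited intensity is the background-subtracted, detrended processed signal of Feature Extraction 11.0.1.1 (protocol GE1_1100_Jul11). The value table that the authors deposited holds the log2 of this intensity for 30574 probes, unscaled between arrays (column medians 9.53 for Ccr2KO day 28 and 9.52 for Ccr2KO day 0; 9.23 to 9.82 over the 6 columns). The submitters' processing notes name R 2.15.1.

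Control and outlier spots (131 and 109 on the Ccr2KO day 28 and day 0 arrays) were left out, spots of the same probe were averaged, and each array's 75th percentile (intensity 975.5 and 968.8) was subtracted on the log2 scale. Of 55681 probes, 27509 matched 1 RefSeq symbol and 28172 none. For genes with several probes the brightest was used. With 1 array per group no test was run, and genes are described by a 2-fold threshold. Tools were R 4.3.3 with limma 3.58.1 and the package data.table (1.17.8), and Python 3.11.15 with pandas 2.3.3. The calculation was tested on simulated data.

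Members and gene lists were chosen with earlier results of these data known. Named genes were the 15 largest increases and decreases, the 10 largest bounds each way, up to 4 members per list with the largest difference, 16 genes always given, and the 10 genes each way whose difference departed most between Ccr2KO and WT, among genes above background on all 4 arrays. Single-gene values given beside these (such as Pdpn, S100a8, Cxcl1, Icos, Ube2c, Cdc20 and the sex-linked genes) were chosen after their values were seen. Of 867 list genes, some had no RefSeq probe or no signal above background and are not counted among those measured. The 8 alternatives tried were normexp with an offset of 50 (on the median spot signal, since the mean signal was planned but is not used here), quantile normalization, median centring, the authors' table, 2 other background filters, the mean of a gene's probes, and outlier spots kept.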

Additional observations from a re-analysis of the deposited data

Results flagged for a closer look

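For 6 named genes above background on all 4 arrays, the day 28 minus day 0 difference was at least 2-fold in opposite directions in the genotypes. With 1 array per group these differences were not tested. Marco differed by 3.17 in Ccr2KO and by −1.66 in WT. Crygc, a lens crystallin gene, differed by 2.54 in Ccr2KO and by −1.77 in WT. Fabp1, a fatty acid binding protein gene, differed by 1.15 in Ccr2KO and by −4.04 in WT, where the WT day 0 array read −0.63 and the other 5 arrays lay between −7.11 and −4.16. Gdf15 differed by −1.66 in Ccr2KO and by 2.38 in WT, Cxcl10 by −1.05 and 1.93, and Cdkn1a, which encodes the cell cycle inhibitor p21, by −1.01 and 1.11. At day 28 Cdkn1a read 3.56 in Ccr2KO and 4.10 in WT, against 4.57 and 2.99 untreated. Named genes not above background on every one of these arrays are not counted among the 6. Of these, genes such as Il1bos, Tac1, Mmp1b and Tdrd9 also went opposite ways.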

How the results depend on the processing

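No paired analysis was possible because each group has 1 array. No list median or named gene that differed at least 2-fold reversed its direction under the 8 alternatives. Smaller differences and counts were not scored for a change of direction. Of 432 list medians recomputed, 422 stayed within 1.5-fold of the value given, and 49 of 54 lists did so under every alternative. Of 6729 recomputed values of named and list genes, 6611 stayed within 1.5-fold, and 740 of 854 genes did so under every alternative, while 114 did not. Counts were the least stable under normexp, which gave 1018 genes higher and 613 lower at day 28, and 172 higher and 240 lower in the comparison of Ccr2KO with WT differences. Under normexp the medians were 1.29 for neutrophil chemokines, 1.17 for other chemokines, 2.69 for mast cells, basophils and eosinophils, and −1.16 for platelets. The authors' table gave 1.39, 1.32 and 2.52 for the first 3 of these. Of the 854 genes, 787 could be compared in the authors' table, and all 787 stayed within 1.5-fold. With genes above background on both arrays only, medians were 0.69 for basal epithelium, 1.31 for other chemokines and 2.71 for mast cells, basophils and eosinophils, with fewer genes counted. Median centring moved the median of all genes to −0.148 and the share of higher calls to 55.3%, against 60.4%. For changes under normexp and the authors' table the cause was not tested. Signal near background limits the dimmest genes. Among 42 repeated probes that were dim but above background on both Ccr2KO arrays, the median SD of a single-spot difference was 0.244.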
